A study of Mus musculus with 2 samples.

Results

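DNA replication and G1/S genes were followed across cell classes of the mouse small-intestinal crypt. The set holds 45 genes, listed by name for their known roles and not by any measured level, and all 45 were found among the 31055 genes of the count table. By the labels the cells came from 1 mouse that carried ChgaCreER-tdTomato, a tamoxifen-activated Cre recombinase under the promoter of the hormone-granule gene Chga, and Rosa26LSL-eYFP, a reporter that turns on after Cre activity. The mouse received 5 daily injections of 1 mg tamoxifen, and eYFP+ cells and unselected epithelial cells were sorted from crypts, hashtagged and run together as 1 gene expression library with 1 hashtag library. By the labels all classes therefore share genotype, treatment and library, and an untreated group, strain, age and sex were not given in the sources used here. With 1 library there is no replicate, so every value describes this library and no test of a difference was made.

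Before a cell copies its DNA, the origin recognition complex, Cdc6 and Cdt1 load the Mcm helicase onto origins in G1. Cyclin E activity and the E2F transcription factors then carry the cell into S phase, where Cdc45 and the GINS proteins activate the helicase, primase and polymerases copy the strands, and Pcna holds the polymerases on DNA. Crypt stem cells marked by Lgr5 divide often, while enterocytes, goblet cells and hormone-producing enterochromaffin cells are mostly non-dividing at maturity.

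Classes were defined by marker UMIs (unique molecular identifiers, 1 per captured transcript). Lgr5 cells had at least 3 Lgr5 UMIs (497 cells), Neurog3 cells at least 3 UMIs of this endocrine progenitor factor (47 cells), and Tph1 cells at least 5 UMIs of the serotonin-synthesis enzyme Tph1 (347 cells). Goblet cells had at least 0.5% of their UMIs from Agr2, Fcgbp and Muc2 (129 cells), enterocytes at least 2 UMIs of the brush-border phosphatase Alpi (134 cells), and lymphocytes at least 2 UMIs of the leukocyte surface protein Ptprc (95 cells). Of 2335 kept cells, 1080 met exactly 1 rule, 82 met 2 or more and 1173 met none. The largest overlaps were 29 cells between Lgr5 and Tph1, 23 between Neurog3 and Tph1 and 13 between Tph1 and goblet, and a cell counted in each class it met. Median depth ran from 2907 UMIs in lymphocytes and 12503 in Tph1 cells to 28427.5 in enterocytes. The label of the samples, intestinal epithelium, did not cover the lymphocytes, whose Epcam level was 27.3% of that in Lgr5 cells and in which Cd79a and Cd3e, parts of the B and T cell receptors, reached 9.59 and 3.46 per 10000 UMIs. Marker lists were summed without the genes that the class rules used. The other 5 enterochromaffin genes summed to 610 per 10000 UMIs in Tph1 cells and 22.3 in Lgr5 cells, the other 4 goblet genes to 242 in goblet cells and 2.22 in Lgr5 cells, and the other 6 enterocyte genes to 67.3 in enterocytes and 3.62 in Lgr5 cells. The other 6 stem cell genes summed to 104 in Lgr5 cells, 36.3 in Neurog3 cells, 27.2 in Tph1 cells and 3.86 in enterocytes, and the other 5 lymphocyte genes to 118 in lymphocytes. Markers of other cell types were present in most classes. Transcripts of the Paneth cell defensin Defa24 reached 131 per 10000 UMIs in Lgr5 cells, where 19 of the 497 cells took at least 1% of their UMIs from the 4 Paneth markers, and 26 of 129 goblet cells did. The endocrine protein Chga reached 7.92 per 10000 UMIs in lymphocytes, and the stem cell transcript Olfm4 there was 10.8% of its Lgr5-cell level, against 2.72% in enterocytes. In such sums fewer replicating cells and less of the RNA per cell cannot be told apart. The part of free RNA or mixed droplets in the class values was not tested. The labels name 1 mouse, yet 1744 kept cells met a rule for Xist alone (3 or more UMIs of it, none from 4 genes of the Y chromosome) and 252 met the opposite rule (1 or more UMIs from the Y chromosome, Xist at 2 or fewer). Cells of both kinds are not expected from 1 animal, so the number of animals is uncertain. The Xist and Y chromosome rules use raw counts, which depend on depth. Neither was met by 41 of the lymphocytes, 88 of the Tph1 cells and 21 of the Lgr5 cells. Classes differed in the Y chromosome rule, met by 83 of 347 Tph1 cells, 26 of 497 Lgr5 cells and 0 of 95 lymphocytes. They also differed in hashtag, since 284 Tph1 cells were assigned to hashtags 1 and 2 and 11 to hashtags 3 and 4, against 10 and 82 lymphocytes and 157 and 120 Lgr5 cells. Within hashtags 1 and 2 and within hashtags 3 and 4, the log2 ratio of the summed genes to Lgr5 cells was -0.91 and -0.79 in Tph1 cells, -0.29 and -0.14 in goblet cells, -2.12 and -1.32 in enterocytes and -1.55 and -0.27 in lymphocytes. Over all cells it was -0.88, -0.52, -1.95 and -0.53. Between Tph1 and Lgr5 cells it was -0.85 by the Xist rule and -0.94 by the rule for the Y chromosome.

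The replication genes were at their highest summed level among the 6 classes in Lgr5 cells and at their lowest in enterocytes. Levels are UMIs summed over the cells of a class, per 10000 UMIs of that class, with exact 95% Poisson intervals that cover counting error only and not differences between cells. The 45 genes together reached 20.01 (19.8 to 20.2) in Lgr5 cells and 14.7 (14.0 to 15.5) in Neurog3 cells. They reached 13.9 (13.5 to 14.3) in goblet cells, 13.9 (12.7 to 15.1) in lymphocytes, 10.9 (10.6 to 11.1) in Tph1 cells and 5.18 (4.97 to 5.39) in enterocytes. Neurog3, goblet and lymphocyte intervals overlapped, and the other classes stood apart. The 1173 cells that met no rule reached 22.1 (21.9 to 22.3), above the Lgr5 cells.

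A few cells carried much of each sum outside the Lgr5 class. The 10% of cells with most member UMIs held 30.2% of them in Lgr5 cells but 50.2% in Neurog3 cells, 53.6% in Tph1 cells, 52.3% in lymphocytes, 48.7% in enterocytes and 41.9% in goblet cells. These cells were picked by raw member UMIs, which favours deep cells. Their median depth was 43744.5 UMIs in the Tph1 class and 50132 in the Lgr5 class. The median over single cells lay further below the Lgr5 cells than the sums did. It was 15.2 per 10000 UMIs in Lgr5 cells, 9.03 in lymphocytes, 8.24 in Neurog3 cells, 7.06 in goblet cells, 5.26 in Tph1 cells and 2.99 in enterocytes. The share of cells at or above the Lgr5 median was 30.2% (exact Clopper-Pearson 95% interval 22.5 to 38.9) in goblet cells, 21.3% (10.7 to 35.7) in Neurog3 cells and 20% (12.5 to 29.5) in lymphocytes. It was 12.97% (9.62 to 17.0) in Tph1 cells and 4.48% (1.66 to 9.49) in enterocytes, which corresponded to 6 of 134 enterocytes. The 45 Tph1 cells above that line were deeper, with a median of 31941 UMIs against 11578.5 in the other 302. Of the 45, 20 also met another class rule, 13 of them the Lgr5 rule. The 45 cells held less Chga, 37.4 against 102 per 10000 UMIs in the 302, and less Tph1, 7.91 against 19.3. The part of depth or mixed droplets in this was not tested. The proliferation marker Mki67 was 2.68 in those 45 cells and 1.17 in the 302.

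**Figure D1:**
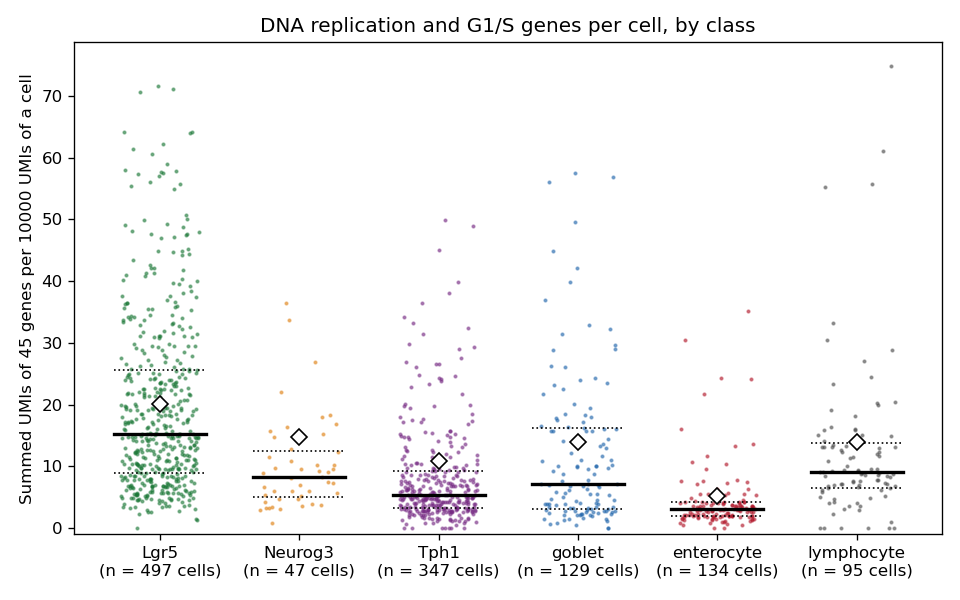
Summed UMIs of the 45 genes per 10000 UMIs of each cell (y axis) for the 6 classes (x axis); each point is a cell, thick lines are medians, dotted lines quartiles and diamonds the summed level of the class. Enterocytes sit lowest, with a median of 2.99, and the Tph1 median of 5.26 lies well under its diamond at 10.9. Deeper cells count for more in the diamonds than in the medians.

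Thinning every cell to 2000 UMIs evened out depth in the detection of transcripts, leaving out 2 Lgr5, 3 Tph1, 5 goblet, 1 enterocyte and 14 lymphocyte cells. It does not change the share of a cell's UMIs that the set takes, which itself varied with depth. The r of the summed set with log UMIs ran from 0.104 in lymphocytes to 0.616 in Neurog3 cells, with 0.384 in Tph1 and 0.204 in Lgr5 cells. Any member was then seen in 90.1% of Lgr5 cells, 86.4% of lymphocytes, 76.6% of Neurog3 cells, 71.0% of goblet cells, 66.0% of Tph1 cells and 55.6% of enterocytes. Without thinning, between 93.7% and 100% of the cells of each class had a member UMI. For single genes the thinned shares were small: the helicase subunit Mcm6 was seen in 17.2% (14.0 to 20.8) of Lgr5 cells and in 3.01% (0.825 to 7.52) of enterocytes, against 76.3% and 23.9% unthinned.

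Within Lgr5 cells the genes spanned a wide range of levels. Counts at the 3′ end score each transcript once and were not divided by length, so the order is of transcript counts. Dut, which removes dUTP from the nucleotide pool, was highest at 1.47 (1.41 to 1.54) per 10000 UMIs. Mcm6 followed at 0.983, the DNA ligase Lig1 at 0.963, the histone mRNA binding protein Slbp at 0.948 and Mcm7 at 0.883. The lowest were the licensing factor Cdc6 at 0.0900, the cyclins Ccne2 at 0.0741 and Ccne1 at 0.0713, the GINS subunit Gins3 at 0.0478 and the origin recognition subunit Orc1 at 0.0408. Only 3 of the 44 neighbouring pairs in this order had intervals apart: Dut from Mcm6, Chaf1a from Pold1 and Chaf1b from Rrm2. The 5 highest genes made up 26.2% of the set's UMIs. The order was similar in the other classes, with a rank correlation across the 45 genes of 0.972 in goblet, 0.969 in Neurog3, 0.961 in Tph1, 0.891 in enterocyte and 0.774 in lymphocyte cells. Those genes share a library and the overlapping cells, so the correlations are descriptions. Lgr5 cells had the highest level of 33 genes, lymphocytes of 9, goblet cells of 2 and Tph1 cells of 1, while enterocytes had the lowest level of 41. These ranks do not use the intervals. Only 3 members were higher than in Lgr5 cells with intervals apart in lymphocytes, and none in goblet or Tph1 cells. The same ranks over all genes were not computed.

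Promoter sequences were examined because E2F factors are known to bind short words of T runs followed by G and C bases at many replication genes. Whether genes with a word differ from the others in their ratios to Lgr5 cells was not tested. RefSeq windows of build GRCm38.p6, from 250 bases before to 50 after a transcription start, were matched by symbol for 37 of the 45 genes. Mcm4, Gins1, Gins2, Prim2, Pole, Rfc2, Ccne2 and Tipin were not matched. The words TTTCGCGC, TTTGGCGC, TTTCCCGC and TTTGCCGC were searched on both strands. At least 1 word occurred in 16 of the 37 matched genes (43.2%), against 2.61% of all 27025 genes with such a window. The same words occurred in 13 of 35 matched genes of a wider replication and G1/S list and in 1 of 18 mitotic genes. Words may overlap each other on opposite strands, and a match is a stretch of letters, not a shown binding site. The stretches printed here are those of 6 genes named in other results, each 100 bases long in the direction of the gene, with the words in capitals. All 6 were picked among genes with a word. Other genes named in the results, among them Dut, Tyms, Pcna, Rrm1, Rrm2 and Slbp, had no word. Mcm6 (chr1:128359736-128359835, minus strand, 130 to 31 bases before the start) holds 3 words and had the lowest log2 ratio to Lgr5 cells in enterocytes. Mcm5 (chr8:75109309-75109408, plus strand) holds a pair that overlap on opposite strands. Uhrf1 (chr17:56304083-56304182, plus strand) and Hells (chr19:38930880-38930979, plus strand) are chromatin factors with high correlations in Lgr5 cells. Cdc6 (chr11:98907961-98908060, plus strand) was above Lgr5 cells in lymphocytes, and Pola1 (chrX:93632246-93632345, minus strand) was the only gene highest in Tph1 cells.
Mcm6: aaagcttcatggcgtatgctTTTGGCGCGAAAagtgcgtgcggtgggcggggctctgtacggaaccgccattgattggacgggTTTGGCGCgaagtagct
Mcm5: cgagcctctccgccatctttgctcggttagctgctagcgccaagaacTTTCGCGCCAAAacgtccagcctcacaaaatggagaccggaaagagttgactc
Uhrf1: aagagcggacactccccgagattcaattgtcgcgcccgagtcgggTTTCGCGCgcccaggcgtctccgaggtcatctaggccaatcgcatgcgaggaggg
Hells: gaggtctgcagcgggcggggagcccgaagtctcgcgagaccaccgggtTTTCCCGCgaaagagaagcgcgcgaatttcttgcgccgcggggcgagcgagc
Cdc6: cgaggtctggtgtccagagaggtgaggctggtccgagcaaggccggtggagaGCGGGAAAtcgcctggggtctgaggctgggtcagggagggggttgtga
Pola1: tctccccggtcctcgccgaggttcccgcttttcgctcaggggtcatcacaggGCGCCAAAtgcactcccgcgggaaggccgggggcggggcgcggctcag

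Each class was set against Lgr5 cells gene by gene, over all genes with at least 50 UMIs in the pair of classes, which all 45 members had. A ratio is log2 of summed UMIs per 10000 with 0.1 added to both, which understates the change of low genes. A gene counted as lower or higher when the intervals did not overlap, and separately when it was also at least 2-fold apart. With 0.1 added, 6 members whose Lgr5-cell level is under 0.1 (Cdc45, Cdc6, Ccne2, Ccne1, Gins3 and Orc1) could not be called 2-fold lower at any level.

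By role, the Mcm helicase was the largest group in Lgr5 cells at 4.11 per 10000 UMIs, from Mcm2 at 0.422 to Mcm6 at 0.983. It had the lowest share of its Lgr5-cell level of the 9 groups in Tph1, goblet and enterocyte cells, with 47.1% in Tph1 cells, 58.4% in lymphocytes, 61.1% in goblet and 69.8% in Neurog3 cells. Origin licensing summed to 1.06 in Lgr5 cells, of which Orc6 gave 0.543 and Cdt1 0.386, and kept 53.8% in Tph1 cells and 73.6% in Neurog3 cells. Cdt1 alone was 0.305 in Neurog3 cells, 0.206 in goblet cells, 0.179 in Tph1 cells and 0.118 in enterocytes. Helicase activation by Cdc45 and the GINS subunits was the smallest group at 0.615, led by Gins2 at 0.341.

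Polymerase and primase genes summed to 1.57 in Lgr5 cells, led by the primase subunit Prim1 at 0.512, and kept the largest share of any group in Tph1 cells, 66.6%. Prim1 itself was 0.234 in Tph1 cells, 0.341 in Neurog3 cells, 0.352 in goblet cells and 0.118 in enterocytes, and the polymerase subunits Pold1 and Pole were 0.140 and 0.0764 in Tph1 cells against 0.253 and 0.133. Pola1 was the largest of the group in Tph1 cells, at 0.431 against 0.390 in Lgr5 cells. Every other gene of the group was lower in Tph1 cells with intervals apart. The share of the group without Pola1 was not computed. The clamp and its loader summed to 2.94, with Rfc2 highest at 0.746, and Rfc2 was the member of this group with the highest level in lymphocytes, 0.825. Single-strand binding, flap removal and ligation summed to 1.92, and kept 52.8% in Tph1 cells, beside 51.7% for the nucleotide supply group. In nucleotide supply, 3.49 in Lgr5 cells, Dut, Tyms and Rrm1 gave most UMIs, and Rrm1, the large subunit of ribonucleotide reductase, was 0.633 in Lgr5, 0.493 in Neurog3, 0.438 in goblet, 0.351 in Tph1 and 0.163 in enterocyte cells.

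The chromatin copying group, 2.79 (2.70 to 2.88) in Lgr5 cells, kept the largest share of any group in Neurog3 cells, 89.9%. It reached 2.51 (2.22 to 2.82) in Neurog3 cells, and these intervals overlapped. Slbp was the largest of the group, at 1.06 in Neurog3 cells against 0.948 in Lgr5 cells. It was 0.680 in Tph1 cells and 0.851 in goblet cells. The share of the group without Slbp was not computed. Among G1/S control and checkpoint genes, which summed to 1.51, Tipin at 0.513, Dtl at 0.369 and Clspn at 0.361 were the highest in Lgr5 cells, and the transcription factor E2f1 was 0.125 there, 0.108 in Neurog3, 0.0515 in Tph1 and 0.0312 in enterocyte cells. Dtl, which directs Cdt1 to degradation, was 0.0491 in enterocytes, 13.3% of its Lgr5-cell level, the lowest share of any member.

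Enterocytes, the absorptive cells, held less of nearly every replication gene. Intervals lay apart and lower for 43 of 45 genes, where 36.4% of all tested genes were lower, and 30 were at least 2-fold lower, where 5.71% were. No member was higher under either rule, where 24.6% of tested genes were at any fold and 6.36% at 2-fold. The median log2 ratio was -1.17 over the members and -0.13 over all tested genes. The Mcm helicase group was furthest below Lgr5 cells: the 6 subunits summed to 0.618 (0.547 to 0.695) in enterocytes, 15.0% of the 4.11 (4.003 to 4.21) in Lgr5 cells. The clamp and loader group, Pcna and 4 Rfc subunits, kept 36.7% of its Lgr5-cell level, and the other role groups between 21.1% and 33.7%. Mcm6 was at 0.132 (0.1001 to 0.170) against 0.983 (0.933 to 1.04), a log2 ratio of -2.23. Dut was at 0.268 against 1.47 (log2 ratio -2.10), and Hells, a chromatin remodeler, at 0.103 against 0.750 (log2 ratio -2.07). At the other end were the low genes Ccne2 and Ccne1, both at a log2 ratio of -0.29 with overlapping intervals, and Orc1, where 3 UMIs gave a log2 ratio of -0.40 (-0.59 to -0.13 from the interval bounds). Slbp kept the largest share of its Lgr5-cell level, 63.9%, with 0.606 against 0.948.

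Tph1 cells, in which the enterochromaffin transcripts Chgb and Tac1 reached 482 and 30.7 per 10000 UMIs, also held less of most members. Intervals were apart and lower for 39 genes, where 20.1% of tested genes were lower, and for none higher, where 39.1% were. The 2-fold rule called 0 members lower, with 1.16% of all tested genes called, and 0 higher, with 8.97% called. The median log2 ratio was -0.57 over the members and 0.11 over all genes. Lig1 was at 0.448 (0.397 to 0.503) against 0.963 (0.913 to 1.01), Mcm6 at 0.460 against 0.983 and Mcm7 at 0.423 against 0.883, with log2 ratios of -0.96, -0.95 and -0.91. These levels are more than 2-fold apart before 0.1 is added, and with a pseudocount of 0.01 the 2-fold rule called 21 members lower. When each cell counted equally in a mean, 20 members were at least 2-fold lower in Tph1 cells, where 4.03% of tested genes were, with the intervals still those of the sums. For 6 genes the intervals overlapped: Orc1, Ccne1, Ccne2, Gins3 at 0.0328 against 0.0478, the single-strand binding subunit Rpa1 at 0.145 against 0.165, and Pola1.

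Pola1, the catalytic subunit of the primase-bound polymerase, stood alone as a gene highest in Tph1 cells. Its level was 0.431 (0.381 to 0.485) there and 0.390 (0.359 to 0.424) in Lgr5 cells, 0.368 in Neurog3 cells, 0.335 in lymphocytes, 0.267 in goblet cells and 0.0825 (0.0581 to 0.114) in enterocytes. The Tph1, Lgr5, Neurog3 and lymphocyte intervals overlapped. After thinning, Pola1 was seen in 11.05% (7.94 to 14.8) of Tph1 cells and 7.88% (5.66 to 10.6) of Lgr5 cells, against 42.4% and 53.9% unthinned, with overlapping intervals. The sources used here do not state how reads of overlapping genes were assigned, and the part of such reads was not tested. The gene was then singled out after its values were seen. In cells whose summed members lay below the Lgr5 median, Pola1 was 0.390 (0.336 to 0.449) in 302 Tph1 cells against 0.198 (0.166 to 0.235) in 248 Lgr5 cells, with intervals apart. In cells at or above that median it was 0.555 and 0.558. In the low cells the other genes named for Tph1 cells pointed the other way or overlapped: Mcm6 was 0.205 against 0.496 and Lig1 0.213 against 0.389, with intervals apart, while Rpa1 was 0.104 against 0.0655, with intervals overlapping. This split uses the members themselves. Among cells that met only 1 rule, Pola1 was 0.427 in 280 Tph1 cells and 0.390 in 458 Lgr5 cells. The gene lies on the X chromosome. In cells of the Xist rule it was 0.434 (0.366 to 0.511) in 176 Tph1 and 0.386 (0.353 to 0.422) in 450 Lgr5 cells. In cells of the rule for the Y chromosome it was 0.477 in 83 Tph1 and 0.476 in 26 Lgr5 cells. Intervals overlapped in both splits.

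The summed level in Neurog3 cells lay between those of Lgr5 and Tph1 cells. Of 45 genes, 12 were lower with intervals apart, where 7.6% of tested genes were, 33 overlapped and none was higher, where 18.4% were. None was 2-fold lower, where 0.682% were, or 2-fold higher, where 4.31% were. The median log2 ratio was -0.35 over members and 0.08 over all genes. The lowest ratios were those of Pola2, the second subunit of that polymerase (0.0538 against 0.167, log2 ratio -0.80), the fork protection factor Tipin (0.278 against 0.513, -0.70) and Pcna (0.305 against 0.548, -0.68). The Pola2 value rests on 6 UMIs. At the other end Slbp was 1.06 (0.876 to 1.27) against 0.948, Rpa1 0.161 against 0.165 and the chromatin assembly subunit Chaf1b 0.224 against 0.239, with intervals that overlapped. Of these 47 cells, 14 met the Neurog3 rule alone, 23 were also Tph1 cells and 9 also Lgr5 cells, so the class shares cells with both classes beside it. The summed log2 ratio was -0.44 over all 47 cells and -0.14 over the 14 against Lgr5 cells of that rule alone.

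Goblet cells, the mucus producers, were lower for 26 members with intervals apart, where 21.8% of tested genes were lower, and higher for none, where 18.3% were. No member was 2-fold lower, where 1.7% of genes were, or 2-fold higher, where 4.52% were. The median log2 ratio was -0.41 over members and -0.07 over all genes. Mcm7 was at 0.470 (0.397 to 0.552) against 0.883, Cdt1 at 0.206 against 0.386 and the single-strand binding subunit Rpa2 at 0.200 against 0.373. The ratios were -0.79, -0.66 and -0.66. Rrm2, the regulated subunit of ribonucleotide reductase, was 0.229 (0.179 to 0.288) against 0.190 (0.169 to 0.214), Cdc6 0.114 against 0.0900 and Ccne1 0.0920 against 0.0713, and these intervals overlapped. The 39 goblet cells at or above the Lgr5 median of the set held 16.0 Muc2 UMIs per 10000 against 34.4 in the other 90, and 3.63 Mki67 UMIs against 1.52. Their median depth was 31128 UMIs against 19289.5, and its part was not tested.

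Lymphocytes differed from the epithelial classes in which genes stood out. Intervals were apart and lower for 15 members, where 16.3% of tested genes were, apart and higher for 3, where 16.6% were, and overlapping for 27. At 2-fold, 6 were lower, where 10.1% of genes were, and 1 was higher, where 9.64% were. The lowest were the thymidylate synthase Tyms (0.258 against 0.837, log2 ratio -1.39, 10 UMIs), the DNA methylation maintenance factor Uhrf1 (0.155 against 0.523, -1.29, 6 UMIs) and Chaf1a (0.0774 against 0.330). The Chaf1a log2 ratio of -1.28 rests on 3 UMIs and runs from -1.99 to -0.30 over the interval bounds. Rpa1 was higher at 0.438 (0.255 to 0.702) against 0.165 (0.145 to 0.188), from 17 UMIs, with a log2 ratio of 1.02. Cdc6 was 0.258 (0.124 to 0.474) against 0.0900 and Slbp 1.42 (1.07 to 1.85) against 0.948, both with intervals apart, while Rrm2 at 0.335 against 0.190 overlapped. Of the 10 Cdc6 UMIs, 7 lay in 1 cell. That cell belongs to 4 lymphocytes with Cd79a UMIs, a part of the B cell receptor, that held 78, 61, 57 and 35 member UMIs of 537 in the class. These 4 cells had 0 or 1 Epcam UMI and 5 to 12 Mki67 UMIs. The 50 lymphocytes with Cd79a and no Cd3e UMI reached 21.3 (19.1 to 23.6) and the 31 with Cd3e, a T cell receptor component, and no Cd79a UMI 12.4 (10.3 to 14.9), but the medians per cell were 8.95 and 11.96, in the opposite order.

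**Figure D2:**
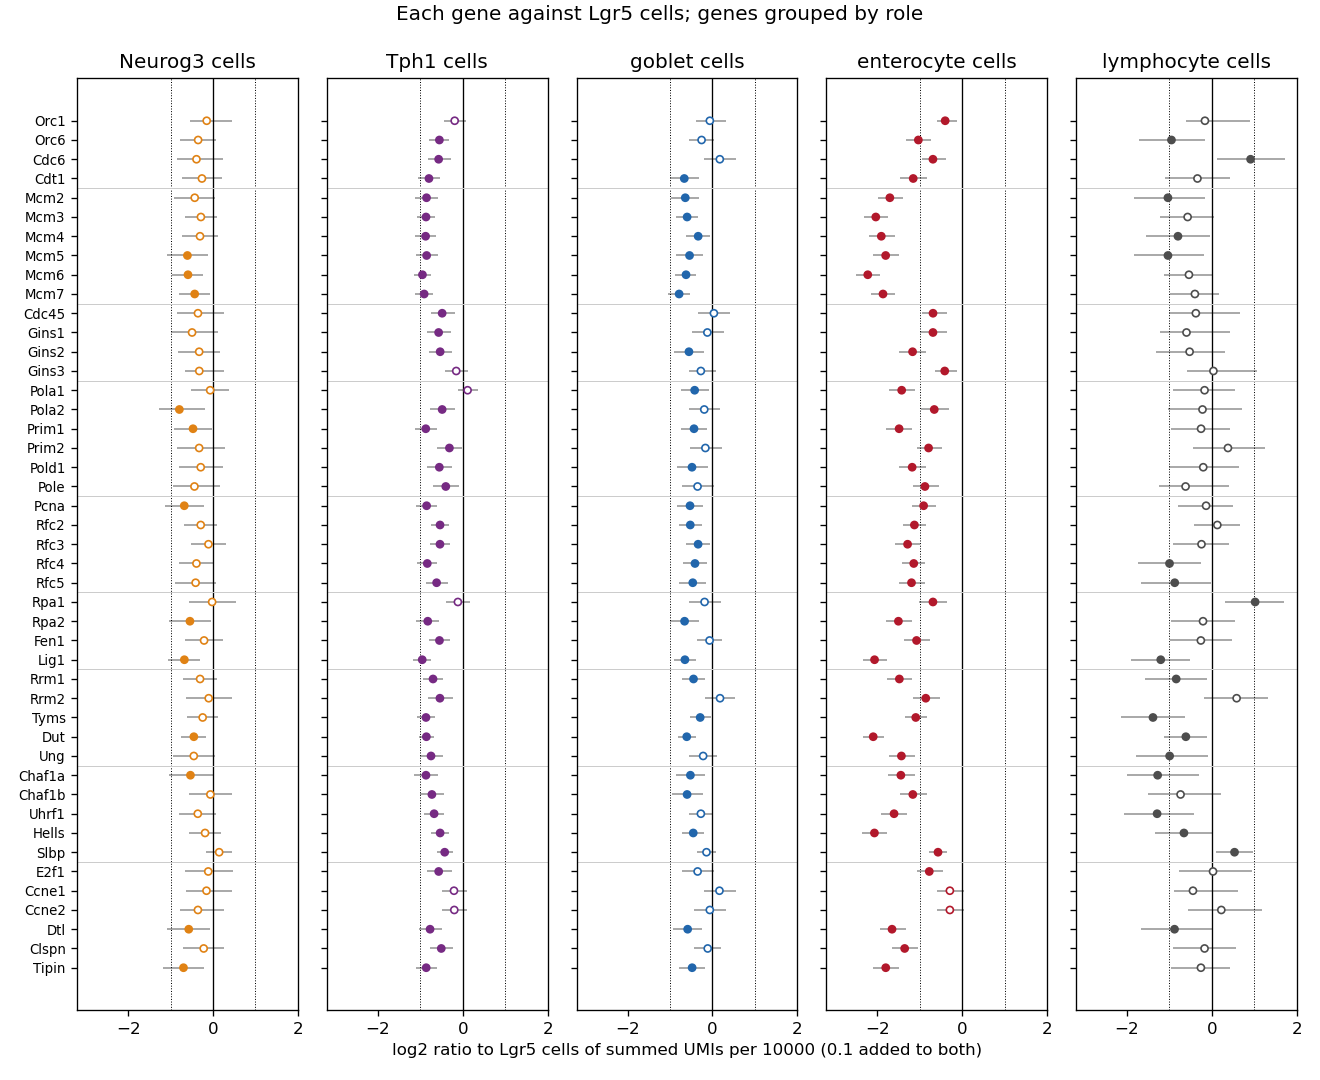
Log2 ratio of each of the 45 genes to Lgr5 cells, with 0.1 UMI per 10000 added to both (x axis, 5 panels by class), genes grouped by role on the y axis. Points are ratios, bars span the ratios of opposite interval bounds, filled points mark intervals apart and dotted lines a 2-fold difference. Enterocyte points lie furthest left, with Mcm6 at -2.23, and Rpa1 in lymphocytes lies at 1.02.

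A wider list of 51 further replication and G1/S genes was counted in the same way. Of the 50 with enough UMIs, 44 were lower and 3 higher with intervals apart in enterocytes, 38 and 5 in Tph1 cells, 15 and 5 in goblet cells, 14 and 2 in Neurog3 cells and 15 and 4 in lymphocytes. Shares of all tested genes lower and higher were 36.4% and 24.6% in enterocytes and 20.1% and 39.1% in Tph1 cells. They were 21.8% and 18.3% in goblet cells, 7.6% and 18.4% in Neurog3 cells and 16.3% and 16.6% in lymphocytes. The G1 kinase Cdk6 was at least 2-fold lower in all 5 classes, from 1.78 in Lgr5 cells to 0.735 in Neurog3 cells and 0.205 in enterocytes. E2f2, an E2F factor, was higher in 4 classes with intervals apart, at 0.0997 in Lgr5 cells, 0.224 in Neurog3, 0.267 in Tph1, 0.365 in goblet and 0.383 in enterocyte cells. Both genes were singled out after their values were seen. Of 20 mitotic genes, all 20 were lower with intervals apart in enterocytes and in Tph1 cells, 18 in lymphocytes, 16 in goblet cells and 15 in Neurog3 cells. The shares of all tested genes that were lower, given above, hold for these counts too.

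Within Lgr5 cells the genes were correlated from cell to cell. The mean Pearson correlation of ln(1 + UMIs per 10000) over the 990 pairs was 0.288 across 497 cells, and all 990 correlations were above 0. The cells share a library and differ in depth, and the summed set had an r of 0.204 with log UMIs and 0.135 with ribosomal genes. The highest pairs joined the sliding clamp Pcna with Lig1 (0.592), Pcna with Uhrf1 (0.586), Lig1 with Uhrf1 (0.572), Tyms with the checkpoint mediator Clspn (0.567) and Rrm2 with Clspn (0.559). Next came Mcm5 with Lig1 (0.549), Uhrf1 with Clspn (0.545), Mcm5 with Uhrf1 (0.544), Mcm3 with Hells (0.542) and Rrm1 with Clspn (0.542). The lowest pairs were Orc1 with Gins3 (0.00094) and Tyms with Ung (0.0096), where Ung is the glycosylase that removes uracil from DNA. The Mcm subunits correlated more with each other (mean 0.412) than with other members (0.310), whereas the licensing genes (0.196 and 0.250) and the helicase activation genes (0.165 and 0.210) did the reverse. Genes with few UMIs correlate less in sparse counts: the rank correlation between a gene's UMIs and its r with the other 44 was 0.825 over the 45 genes.

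The mean pair r was 0.285 in goblet cells, close to the 0.288 of Lgr5 cells, and 0.250 in enterocyte, 0.223 in Neurog3, 0.208 in Tph1 and 0.0870 in lymphocyte cells. Depths and cell numbers differ between these classes. Among 3864 other genes with at least 500 UMIs in Lgr5 cells, the median r with the summed set was 0.0554. Among the 10 highest were Atad2 (0.686), Slfn9 (0.676), Dek (0.663), Stmn1 (0.616), Tk1 (0.598), Nasp (0.584), Dnmt1 (0.582), Pclaf (0.579) and Ranbp1 (0.577). Atad2, Tk1 and Nasp belong to the wider replication list. Tk1 salvages thymidine, and Dnmt1 copies DNA methylation.

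**Figure D3:**
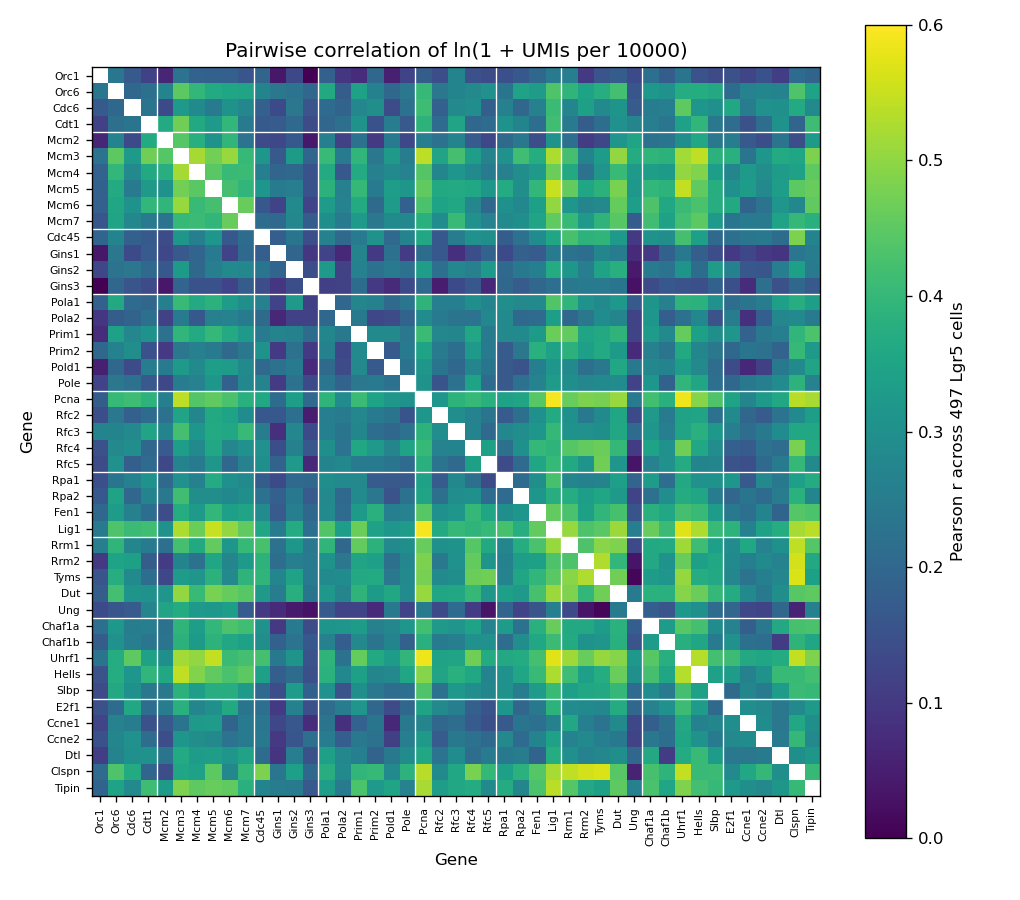
Pearson r of ln(1 + UMIs per 10000) for each pair of the 45 genes across 497 Lgr5 cells, by colour from 0 to 0.6, with white lines between role groups on both axes. The brightest cells join Pcna, Lig1 and Uhrf1 (0.572 to 0.592), and the row of Ung is dark against Tyms (0.0096).

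Members differed in their correlation with mitotic genes in Lgr5 cells. The summed set had an r of 0.304 with the 20 mitotic genes and 0.237 with 13 histone genes across Lgr5 cells, but single genes ranged widely. Ung (-0.19), Mcm2 (-0.13), Cdt1 (-0.09) and Mcm6 (-0.06) had a negative r with the mitotic genes. The negative sign was not shared by the other classes examined. In the same gene order, r was -0.03, 0.26, 0.14 and 0.14 in goblet cells. It was 0.15, 0.03, 0.23 and 0.27 in Neurog3 cells. In Lgr5 cells, Tyms (0.47), Clspn (0.47), the clamp loader subunits Rfc4 (0.46) and Rfc5 (0.42), and Rrm1 (0.40) had the highest r. Mcm6 nevertheless had an r of 0.612 with the other 44 genes, above that of Tyms at 0.563.

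**Figure D4:**
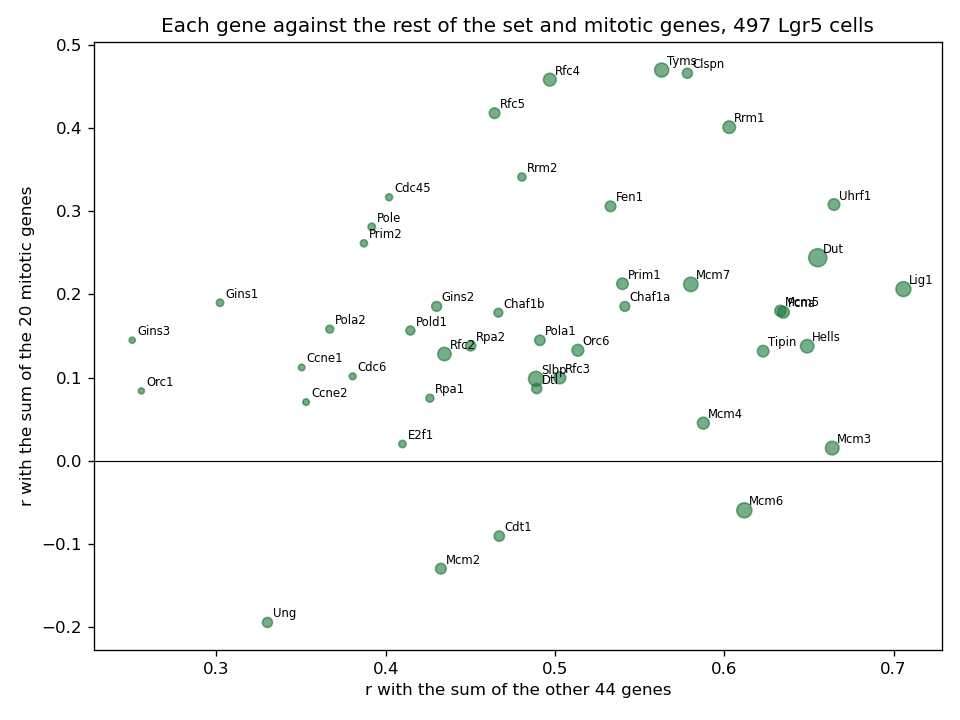
Each of the 45 genes by its r with the sum of the other 44 (x axis) and with the sum of 20 mitotic genes (y axis) across 497 Lgr5 cells; point area grows with the gene's UMIs. Lig1 lies furthest right, Tyms and Clspn lie highest at 0.47, and Ung, Mcm2, Cdt1 and Mcm6 lie below 0.

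Lgr5 cells were then divided at the median of the histone genes (3.06 UMIs per 10000) and at the median of the mitotic genes (3.17), lists that hold no member. Many histone transcripts are made during S phase and mitotic genes peak after it, but the histone list was not uniform. Hist1h2bc had an r of -0.285 with the summed set in Lgr5 cells. It was 2.69 per 10000 UMIs in Tph1 cells and 1.90 in enterocytes, against 0.762 in Lgr5 cells. Hist1h1c was 1.45 in Tph1 cells against 0.419. A high histone sum therefore does not by itself place a cell in S phase. The set summed to 16.5 (16.1 to 16.8) in 187 cells low in both, 22.3 (21.7 to 23.0) in 61 cells low in histone and high in mitotic genes, 23.6 (23.2 to 23.9) in 188 cells high in both and 10.8 (10.3 to 11.4) in 61 cells high in histone and low in mitotic genes. Median depth was 18725, 28750, 29510.5 and 19792 UMIs in the same order, higher in both mitotic-high groups. Among cells of 10000 to 40000 UMIs, 19 members were at least 2-fold higher in the both-high than in the histone-high, mitotic-low cells, and 13 were lower with intervals apart in the latter than in cells low in both. The shares of all tested genes in that window are not given here. Between the both-high and the histone-high, mitotic-low cells, 33 of 43 tested members were higher with intervals apart, where 9.29% of all tested genes were, and 15 were at least 2-fold higher, where 2.66% were. None of the 43 was lower, where 8.12% of tested genes were at any fold and 0.891% at 2-fold. Clspn was 0.116, 0.431, 0.571 and 0.0376 in the order given, Tyms 0.465, 0.852, 1.20 and 0.241, and Rrm2 0.0378, 0.140, 0.342 and 0.0150. All 3 were highest in the cells high in both lists. Ung was 0.467 (0.406 to 0.535), 0.384, 0.288 (0.249 to 0.332) and 0.286, so that it was highest in the cells low in both lists and apart from the cells high in both. Mcm2 was 0.496 (0.433 to 0.565) in cells low in both against 0.362 (0.317 to 0.410) in cells high in both, also apart. Cdt1 was between 0.331 and 0.409 in the 4 groups with overlapping intervals. The highest of the 4 groups was both-high for 24 members, histone-low and mitotic-high for 19 and both-low for Cdt1 and Ung. This count does not use the intervals, and the same count over all genes was not made. Some members were nearly level in both mitotic-high groups, such as Pole (0.178 and 0.177) and Pola1 (0.450 and 0.447), so 24 and 19 are not a division of the set.

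The histone-high, mitotic-low cells were lower than cells low in both for 14 of 36 tested members with intervals apart, where 1.06% of tested genes were, and for 16 of all 45. At 2-fold 1 of the 36 was lower, where 0.399% were. None was higher, where 8.08% of tested genes were at any fold and 0.931% at 2-fold. Between the 61 mitotic-high and the 187 mitotic-low cells that were low in histone genes, 13 of 40 tested members were higher with intervals apart, where 10.5% of tested genes were, and 1 was 2-fold higher, where 1.34% were. None was lower there, where 1.86% were at any fold and 0.411% at 2-fold. In the histone-high, mitotic-low cells Hist1h2bc and Hist1h1c gave 46.3% of histone UMIs, against 9.75% in cells high in both, and the cell cycle inhibitor Cdkn1a was at 2.14 against 0.367 per 10000 UMIs in cells low in both. With these 2 histone genes left out of the list, 6 of the 45 members were lower. The cells low in both lists held 14 of the 19 Lgr5 cells rich in Paneth markers, and without those 19 cells 20 members were lower. The shares of all tested genes after either change are not given here.

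**Figure D5:**
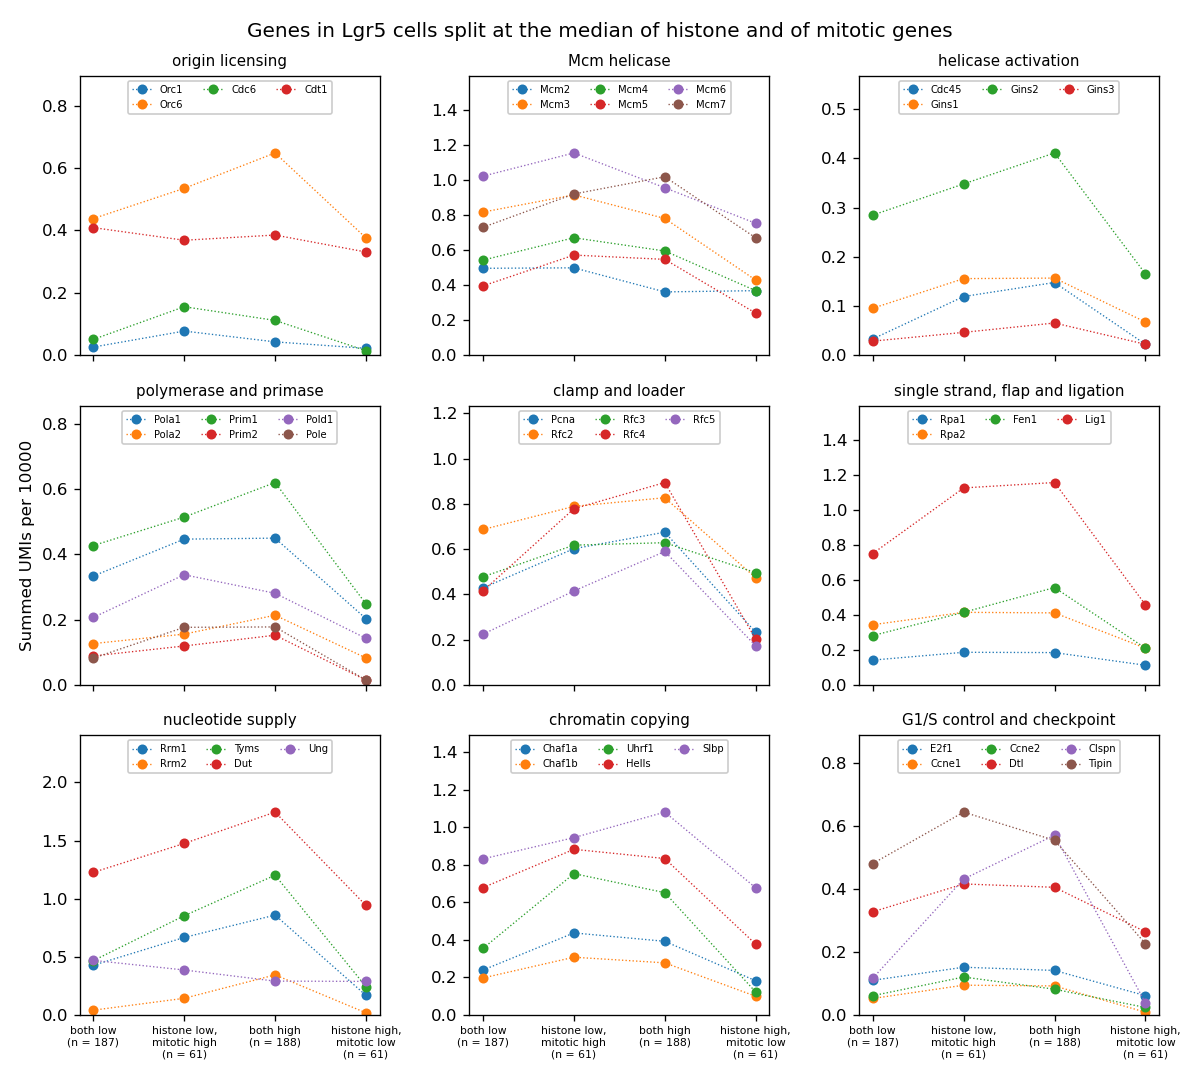
Summed UMIs per 10000 (y axis) of each gene in 4 groups of Lgr5 cells split at the median of histone and of mitotic genes (x axis, with cell numbers), in 9 panels by role; dotted lines only join the points of a gene. Clspn, Tyms and Rrm2 are highest in the cells high in both, and Ung in the cells low in both.

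Lgr5 cells were compared by hashtag and by reporter. The sources used here do not say which hashtag marks which sort. The set summed to 20.5 (20.1 to 20.9) in 157 Lgr5 cells assigned to hashtags 1 and 2 and to 18.9 (18.5 to 19.3) in 120 assigned to hashtags 3 and 4, with intervals apart. Tyms (0.911 against 0.663), Rfc4 (0.733 against 0.567) and Slbp (1.00 against 0.817) were higher with intervals apart in hashtags 1 and 2, 3 of 43 tested members, where 4.73% of tested genes were. None was lower, where 1.24% were. Cells with at least 3 YFP UMIs reached 18.9 (18.3 to 19.5, 64 cells) and cells without a YFP UMI 20.3 (20.1 to 20.6, 389 cells). No single member had intervals apart, where 3% of tested genes were lower and 4.6% higher. Among cells that met the Lgr5 rule alone, the sums were 20.3 (19.6 to 21.1) in 49 cells with YFP and 20.4 (20.2 to 20.7) in 375 without, and the intervals overlapped. None of the 44 members tested there had intervals apart, where 3.04% of tested genes were lower and 1.34% higher. Among Lgr5 cells of 10000 to 40000 UMIs the sums were 19.2 in 52 cells with YFP and 21.1 in 305 without, with intervals apart. Lig1 (0.802 against 1.06) and Dtl (0.224 against 0.411) were then lower with intervals apart, where 2.25% of tested genes were, and no member was higher, where 4.48% were.

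The Xist rule held for 450 Lgr5 cells, which reached 19.996 (19.8 to 20.2), and the rule for the Y chromosome for 26, which reached 23.9 (22.9 to 24.9). Of the 45 members, 8 were lower in the Xist cells with intervals apart, where 4.77% of tested genes were, and none was higher, where 2.59% were. The 8 were Prim1, Rfc4, Rfc5, Rrm1, Rrm2, Tyms, Dut and Uhrf1. Rrm2 was 0.181 (0.159 to 0.206) against 0.408 (0.286 to 0.565) and Tyms 0.814 against 1.16. Median depth was 23722 UMIs in the Xist cells and 29518.5 in the Y-linked cells, and its part was not tested.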

How the data were processed

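Single cells from mouse small-intestinal crypts were captured with 10x Genomics 3′ chemistry, per the labels' protocols, giving 1 gene expression and 1 hashtag library. Cell Ranger and Seurat are named in the submitters' processing notes, and the deposited matrix header gives software version 3.1.0. Those notes name a human genome build while the deposited gene identifiers are mouse, so the alignment reference is uncertain. The deposited tables used hold raw counts of UMIs and of 4 hashtags, which the authors did not normalize. The authors' filter kept 2335 cells, all of which have hashtag counts, with 51238250 UMIs and 1002 to 129719 per cell; the choice of cells was not stated there.

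UMIs were summed per class. Exact 95% Poisson and Clopper-Pearson intervals cover counting error only, and n is 1 library, so no p-value was computed. Ratios used a pseudocount of 0.1 UMI per 10000 over genes with at least 50 UMIs. No doublet caller was run. A cell was assigned to a hashtag pair at 3 times the counts of the other. The members, lists and rules were chosen with earlier results of these data known, and the rule that counts intervals apart at any fold was added after the values were seen. Named genes are the 3 lowest and 3 highest ratios per class, the 5 highest and 5 lowest levels in Lgr5 cells, the 10 highest pairs and the 10 most correlated other genes, of which 1 is not reported here. Other genes named were chosen after their values were seen. Scripts were tested on simulated data. Python 3.11.15, numpy 2.4.6, scipy 1.17.1, pandas 2.3.3 and matplotlib 3.10.9 were used. The authors' normalized table was not used.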

Additional observations from a re-analysis of the deposited data

Results flagged for a closer look

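The full matrix holds 8913 barcodes that the authors' filtered table leaves out and that entered no comparison. The 45 replication genes summed to 14.7 per 10000 UMIs (14.6 to 14.8) in them, against 18.4 (18.2 to 18.5) in the 2335 kept cells, so a signal of the set is present in data outside the comparisons. These barcodes had a median of 3010 UMIs and 21.8% mitochondrial UMIs, against 19078 and 6.995% in kept cells. In the 7451 of them with a higher mitochondrial percentage than any kept cell the level was 14.6 (14.5 to 14.8), and in the other 1462 it was 14.9 (14.6 to 15.2).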

How the results depend on the processing

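The summed set stayed below Lgr5 cells in all 5 classes under every alternative run, with log2 ratios from -2.45 to -1.32 in enterocytes, -1.28 to -0.79 in Tph1, -1.04 to -0.06 in Neurog3, -0.94 to -0.14 in goblet and -1.55 to -0.27 in lymphocyte cells. A split by depth, outside these runs, gave exceptions. At 40000 or more UMIs the level was 20.5 in 7 Neurog3 and 20.004 in 20 goblet cells, against 19.5 in 96 Lgr5 cells. The Neurog3 and goblet medians per cell were 15.7 and 18.1, below the 19.5 of those Lgr5 cells. Tph1 cells (16.9) and enterocytes (7.17) stayed lower there. The 7 lymphocytes of 5000 to 10000 UMIs and the 2 of 10000 to 20000 also lay above Lgr5 cells of those depths. Counts of members at least 2-fold lower moved more than the ratios of these runs. In Tph1 cells, against 0 as reported, they were 13 in cells of exactly 1 class, 20 by the mean over cells, 12 at 10000 to 40000 UMIs, 21 with a pseudocount of 0.01, 22 at a fold of 1.5, 3 in hashtags 1 and 2, 6 in hashtags 3 and 4, 13 without the 6% of cells with most UMIs, 1 in Xist cells, 6 in Y-linked cells, 2 without the 5 member-richest cells, 1 without Paneth-rich cells and 6 in cells of exactly 1 class with fewer than 3 YFP UMIs. In Neurog3 cells, against 0, they were 1 in cells of exactly 1 class with or without the YFP limit, 7 by the mean over cells, 7 in the depth window, 1 with the lower pseudocount, 6 at a fold of 1.5, 9 without the deepest 6% and 14 without the 5 member-richest cells. In goblet cells, against 0, they were 2 by the mean over cells, 8 in the depth window, 1 with doubled class thresholds, 9 at a fold of 1.5 and 1 in Y-linked cells. In lymphocytes, against 6, they were 3 with doubled thresholds, 12 with the lower pseudocount, 15 at a fold of 1.5, 2 in hashtags 1 and 2, 3 in hashtags 3 and 4 and 17 without the 5 member-richest cells. Members higher in lymphocytes, against 1, were 2 in cells of exactly 1 class with or without the YFP limit, with doubled thresholds, with the lower pseudocount, at a fold of 1.5 and in hashtags 3 and 4, and 0 in hashtags 1 and 2, without the 5 member-richest cells and without Paneth-rich cells. Rpa1 in lymphocytes turned from 1.02 to -1.36 in hashtags 1 and 2, where 10 lymphocytes remained; it was the 1 reversal among 511 recomputed member ratios. The enterocyte count of 30 ranged from 21 to 42. In Lgr5 cells, the 16 members lower in histone-high, mitotic-low cells became 6 without Hist1h2bc and Hist1h1c. The mean pair correlation stayed between 0.285 and 0.290. The causes of these shifts were not tested. At these settings the share of all tested genes is given only for the mean over cells in Tph1 cells (4.03%). The other counts therefore show how the calls moved and not how members compared with other genes. The lower pseudocount and the smaller fold call more genes by construction. Leaving out the cells with most member UMIs lowers the members by construction. Alternatives on the 5 member-richest cells, Paneth-rich cells, the YFP limit, the 2 histone genes and the depth window of the cell cycle groups were added after the data were seen. Settings that left fewer than 10 cells in a class were not run: Neurog3 cells in hashtags 3 and 4 and in Y-linked cells, enterocytes in Y-linked cells, and lymphocytes in the depth window and in Y-linked cells. The pseudocount of 0.1 keeps 6 members with a Lgr5-cell level under 0.1 from being called 2-fold lower. No paired analysis was possible because 1 gene expression library holds all cells.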
